A study of Mus musculus with 10 samples.

Results

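Amino acid transporter mRNA was followed in ASZ001 cells, a mouse basal cell carcinoma (BCC) line that resists Smoothened inhibitors, after inhibition of AP-1 or of the TGFß receptor. The 10 transporter genes were Slc7a11, Slc7a5, Slc7a1, Slc7a3, Slc3a2, Slc1a4, Slc1a5, Slc38a2, Slc6a9 and Slc43a1. They were taken by symbol from a list drawn up with earlier results of these data known. All 10 were listed among the 16719 genes of the T-5224 table and among the 17658 genes of the SB431542 table. In one experiment, cells received 20 µM T-5224 (2 libraries), which blocks DNA binding by the Fos and Jun proteins of AP-1, or DMSO (2 libraries). In the other, cells received 10 µM SB431542 (3 libraries), an inhibitor of the TGFß type I receptor ALK5, or DMSO (3 libraries). All 4 groups were the same line, held for 24 h in low-serum medium (chelated FBS at 0.2%, CaCl2 at 0.05 mM), so no group shows the transporters in full serum. The replicates were described as biological, with nothing said of the days or cultures behind them, and treated libraries were set only against the DMSO libraries deposited in the same table.

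Most amino acids enter cells through a few families of carriers. The heavy chain Slc3a2 brings a light chain to the plasma membrane: with Slc7a5 the pair exchanges large neutral amino acids such as leucine, and with Slc7a11 it imports cystine, which feeds glutathione, in exchange for glutamate. When amino acids run short or the integrated stress response is on, the factor ATF4 is known to raise the transcription of many of these carriers through composite C/EBP-ATF elements, and NRF2 is known to raise Slc7a11 through antioxidant response elements.

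Start-site sequences show which transporters carry letters of these elements or of the AP-1 site, and whether they are the ones whose mRNA moved. RefSeq windows (GRCm38.p6) from 250 bases before to 50 bases after each start were searched on both strands for TGATGNAA (the composite element), TGANTCA (AP-1) and TGACNNNGC (the antioxidant element), where N is any base. Such windows were held for 7 of the 10 genes, 10 windows in all, and not for Slc7a5, Slc7a3 and Slc1a5. The stretch from 150 bases before to 30 bases after the start is printed below for the 4 genes that show each kind of match and the opposite responses described further on, 5′ to 3′ along the gene, with matches in capitals:
Slc7a11, chr3:50443584-50443763, minus strand: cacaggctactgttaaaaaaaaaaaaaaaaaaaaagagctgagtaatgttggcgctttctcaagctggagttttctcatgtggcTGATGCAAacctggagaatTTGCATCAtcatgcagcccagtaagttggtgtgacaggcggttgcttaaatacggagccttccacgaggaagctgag
Slc1a4, chr11:20332684-20332863, minus strand: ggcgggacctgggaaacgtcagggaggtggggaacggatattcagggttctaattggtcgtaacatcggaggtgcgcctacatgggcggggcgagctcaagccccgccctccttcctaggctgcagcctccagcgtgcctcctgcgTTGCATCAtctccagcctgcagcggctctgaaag
Slc7a1, chr5:148399875-148400054, minus strand: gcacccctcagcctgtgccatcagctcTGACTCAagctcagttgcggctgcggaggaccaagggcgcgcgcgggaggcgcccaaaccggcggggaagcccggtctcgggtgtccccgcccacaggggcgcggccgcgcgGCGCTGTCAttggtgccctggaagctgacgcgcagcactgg
Slc38a2, chr15:96699699-96699878, minus strand: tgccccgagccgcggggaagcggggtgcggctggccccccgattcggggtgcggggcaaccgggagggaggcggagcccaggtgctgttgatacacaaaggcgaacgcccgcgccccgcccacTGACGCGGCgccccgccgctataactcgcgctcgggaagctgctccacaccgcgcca

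The Slc7a11 window held 2 composite elements, with first bases 66 and 47 bases before the start, and the Slc1a4 window held 1 that spans the start itself. At least 1 such match was found in 3.97% of the 32851 RefSeq windows and 2 or more in 0.07%. The printed Slc7a1 window held the 1 AP-1 match among the transporters, 123 bases before the start, where 7.81% of all windows hold one. It also held an antioxidant match 11 bases before the start. A further Slc7a1 window, at chr5:148392766-148393065, held no match. Antioxidant matches, in 12.4% of all windows, were also found for Slc38a2 (27 bases before the start), Slc43a1 (16) and Slc6a9 (46 and 45, in 2 of its 3 windows). The Slc3a2 window held no match. A match is a run of letters and not a bound site, and the windows with matches include both genes that rose and one that fell with T-5224.

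Library depth, read from the steps of low RPKM values, was 31840000 to 51440000 reads. RPKM are read counts scaled by gene length and library depth, so levels can be set side by side between genes. DMSO replicate 1 of the SB431542 experiment stood farther from its group than the others (SD of log2 differences 0.272). The SD was 0.161 and 0.190 for the other DMSO libraries and 0.123 to 0.126 for the SB431542 libraries. SB431542 values of the transporters described are therefore given with and without DMSO replicate 1 where they turn on it. All 6 keratinocyte markers (Krt5, Krt14, Trp63, Itga6, Cdh1 and Epcam) were expressed. Their summed RPKM went from between 11780 and 12420 to between 1687 and 1750 with T-5224, and went from between 9290 and 9457 to between 6532 and 6992 with SB431542. Single values reached 6087 RPKM in the T-5224 experiment and 5007 RPKM in the SB431542 experiment. The sums thus follow the most abundant markers and do not show how each of the 6 changed. Immune markers summed to at most 0.035 RPKM, melanocyte markers to at most 0.426 and fibroblast markers to at most 4.13, nearly all Dcn. Of the endothelial markers Kdr was not listed, and the sum, nearly all Pecam1, went from between 10.7 and 11.8 to between 4.11 and 4.67 with T-5224 and from between 5.23 and 6.57 to between 2.60 and 2.83 with SB431542. The part of these markers in the transporter results was not tested, and in bulk RNA fewer cells of a kind and less RNA per cell cannot be told apart.

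T-5224 raised 7 of the 8 transporters that could be tested, by 3.93-fold to 16.0-fold in mean RPKM, and lowered the remaining one, Slc38a2, by less than 2-fold. The rise was largest for the leucine exchanger Slc7a5 and the glycine transporter Slc6a9. Genes were tested where their mean RPKM was at least 1, with limma on log2(RPKM + 0.5) and Benjamini-Hochberg adjustment over the 10809 genes tested, and a gene was called where the log2 fold change passed 1 in size and the adjusted p was under 0.05. Of all genes tested, 10.4% were called up and 10.6% down. With no limit on the fold, 40.3% were higher and 39.4% lower at the same adjusted p, against 7 and 1 of the 8 transporters. The median log2 fold change was 2.24 over the 8 transporters and 0.00344 over all genes tested. All 8 stood above 1 RPKM in every library, so none passed the filter through 1 group alone. Slc7a3 and Slc43a1 did not reach the filter.

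**Figure D1:**
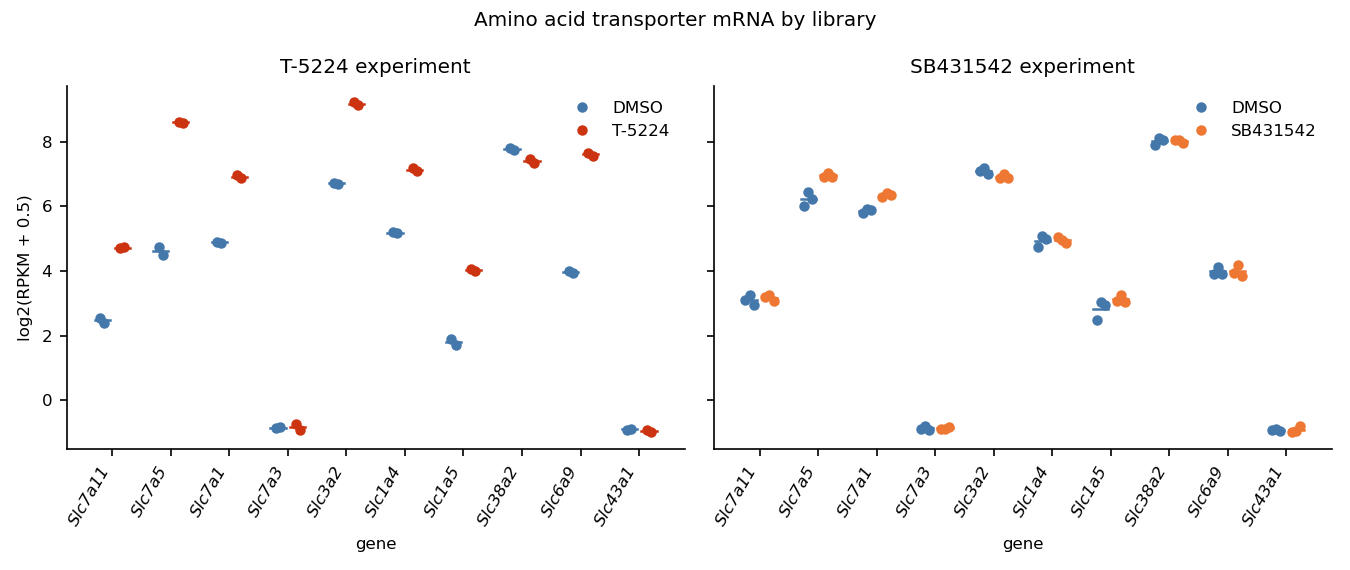
Level of each of the 10 transporters in every library, as log2(RPKM + 0.5) on the vertical axis, with the gene on the horizontal axis, points for libraries and bars for group means. With T-5224 7 genes sit well above their 2 DMSO points and Slc38a2 a little below, whereas with SB431542 only the points of Slc7a5, Slc7a1 and Slc1a5 (above) and Slc3a2 (below) are clear of DMSO.

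Slc7a5, the light chain that carries leucine and other large neutral amino acids, stood at 26.3 and 22.2 RPKM in the DMSO libraries and at 393 and 385 RPKM with T-5224. Both treated libraries lay more than 10-fold above both controls, and the log2 fold change of 3.98 (SE 0.07, adjusted p = 2.69e-12, limma) ranked 31 among the 10809 genes from the highest down. Its heavy chain Slc3a2 rose from 105 and 103 to 595 and 568 RPKM, a log2 fold change of 2.47 (SE 0.05, adjusted p = 7.14e-12). Slc3a2 was thus the transporter with the highest level under T-5224.

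Slc7a11, the cystine importer whose window carries the pair of composite elements, measured 5.33 and 4.79 RPKM in DMSO and 25.7 and 26.2 RPKM with T-5224. The groups lay far apart and replicates of a group differed by little, for a log2 fold change of 2.25 (SE 0.07, adjusted p = 2.31e-10). The rise thus took place from a low level: with T-5224, Slc7a11 stayed below every other transporter that rose except Slc1a5.

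Slc6a9, the plasma membrane glycine transporter of the sodium- and chloride-dependent family, went from 15.4 and 14.8 RPKM to 201 and 188 RPKM. This log2 fold change of 3.64 (SE 0.06, adjusted p = 9.41e-13) ranked 43. Exons of Slc6a9 overlap B4galt2, Ccdc24 and Gm17114 on the opposite strand, and the strand setting of the counting is not given in the sources used here. B4galt2 measured 0.979 and 1.07 RPKM in DMSO and between 0.563 and 0.999 with T-5224, Ccdc24 at most 0.060, and Gm17114 was not listed, so the listed partners held little RNA beside Slc6a9.

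Slc7a1, which imports the cationic amino acids arginine, lysine and ornithine, rose from 29.5 and 29.0 to 124 and 117 RPKM (log2 fold change 2.03, SE 0.06, adjusted p = 5.05e-11). Its paralogue Slc7a3 imports the same amino acids and was close to absent, at 0.055 and 0.056 RPKM in DMSO and 0.102 and 0.027 with T-5224. At this length and depth the Slc7a3 values rest on about 3.5 to 14.4 reads a library over both experiments, and a change in it was not detectable.

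The neutral amino acid exchangers Slc1a4 and Slc1a5 both rose. Slc1a4, which favours alanine, serine and cysteine, went from 36.4 and 35.3 to 145 and 137 RPKM, a log2 fold change of 1.96 (SE 0.05, adjusted p = 5.65e-11). Slc1a5, which also takes glutamine, went from 3.24 and 2.77 to 16.1 and 15.6 RPKM, a log2 fold change of 2.23 (SE 0.09, adjusted p = 9.76e-10). In each case the lowest treated library was more than 3-fold above the highest control.

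Slc38a2, the sodium-coupled carrier of small neutral amino acids, had the highest level of the 10 in both DMSO groups and went the other way. It fell from 225 and 212 RPKM to 177 and 163 RPKM with T-5224, a log2 fold change of -0.36 (SE 0.06, adjusted p = 1.19e-04), and both treated libraries lay below both controls. Slc43a1, a sodium-independent carrier of leucine and other branched-chain amino acids, was at 0.026 and 0.042 RPKM in DMSO and at 0.024 and 0 with T-5224, on about 0 to 6.5 reads a library. Every treated library was above every DMSO library for 7 of the 8 tested transporters, as for 45.1% of all genes, and below for 1, as for 44.5% of all genes.

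The order of levels was rearranged by T-5224. In DMSO it ran Slc38a2 (219 RPKM on average), Slc3a2 (104), Slc1a4 (35.8), Slc7a1 (29.2), Slc7a5 (24.3), Slc6a9 (15.1), Slc7a11 (5.06) and Slc1a5 (3.0). With T-5224 it ran Slc3a2 (581), Slc7a5 (389), Slc6a9 (195), Slc38a2 (170), Slc1a4 (141), Slc7a1 (121), Slc7a11 (26.0) and Slc1a5 (15.9). No neighbours in either order overlapped between the 2 libraries of a group, which is a low bar with n = 2.

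SB431542 moved fewer transporters, and by less. Slc7a5 and Slc7a1 rose, by less than 2-fold, and no transporter passed the 2-fold limit in limma, adjusted or unadjusted, where 0.231% of the 10842 genes tested were called up and 0.581% down. At an adjusted p under 0.05 with no fold limit, 2 of the 8 tested transporters were higher, where 10.2% of all genes were, and 0 were lower, where 10.0% of all genes were. The unadjusted p was under 0.05 for 2 that were higher and 1 that was lower. The median log2 fold change was 0.04 over the 8 transporters and 0.00821 over all genes tested.

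Slc7a5 measured 64.4, 87.3 and 74.9 RPKM in the DMSO libraries and 121, 131 and 120 RPKM with SB431542. Every treated library was above every control, and the log2 fold change was 0.72 (SE 0.11, adjusted p = 0.00491, limma), rank 80 from the highest down. Without DMSO replicate 1 it was 0.61 (adjusted p = 2.29e-04).

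Slc7a1 measured 54.6, 60.3 and 58.7 RPKM in DMSO and 77.1, 84.1 and 82.0 RPKM with SB431542. The groups were again apart, with a log2 fold change of 0.48 (SE 0.06, adjusted p = 0.00257), and 0.44 (adjusted p = 1.58e-04) without DMSO replicate 1. Of the 10, Slc7a1 and Slc7a5 were thus higher with either inhibitor, at doses that differ and in tables normalised apart, and the difference between the inhibitors was not tested.

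The heavy chain Slc3a2 was at 136, 145 and 128 RPKM in DMSO and at 117, 127 and 117 RPKM with SB431542. Every treated library was below every control, yet the log2 difference of -0.18 (SE 0.06, adjusted p = 0.0914) did not pass the test, and it did without DMSO replicate 1 (adjusted p = 0.0392, difference -0.18). Slc1a5 was at 5.09, 7.74 and 7.20 RPKM in DMSO and 7.94, 9.12 and 7.80 RPKM with SB431542. Its libraries were also apart, by a log2 difference of 0.31 (SE 0.15, adjusted p = 0.172), and by 0.14 (adjusted p = 0.183) without DMSO replicate 1, which held the lowest Slc1a5 level. In all, 3 of the 8 had every treated library above every control, as 23.9% of all genes did, and 1 had every one below, as 21.3% did.

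The other 4 tested transporters overlapped between the groups and did not pass the test. Slc7a11 was at 8.15, 9.15 and 7.17 RPKM in DMSO and 8.62, 9.11 and 7.87 RPKM with SB431542, a log2 difference with a 95% limma interval from -0.16 to 0.29. For the glycine transporter Slc6a9 the levels were 14.45, 17.04 and 14.61 against 14.93, 17.52 and 13.89 RPKM, with an interval from -0.23 to 0.24. The intervals were -0.21 to 0.24 for Slc1a4, at 26.2 to 33.3 against 28.4 to 32.3 RPKM, and -0.16 to 0.15 for Slc38a2, at 239 to 279 against 251 to 265 RPKM. All 4 intervals leave out a change of 1.5-fold. Slc7a3 stayed between 0.032 and 0.071 RPKM and Slc43a1 between 0 and 0.075 RPKM over the 6 libraries.

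**Figure D2:**
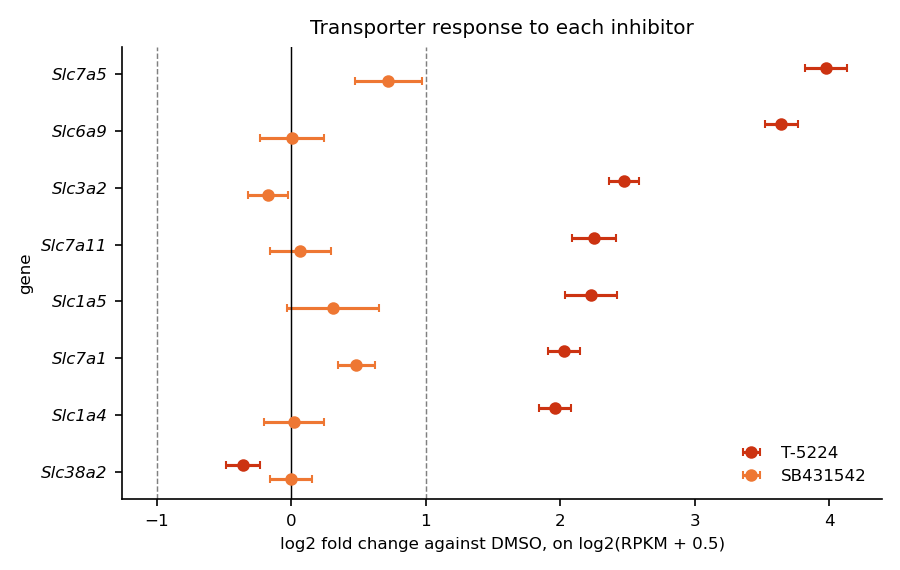
Log2 fold change of the 8 tested transporters (vertical axis) against DMSO on log2(RPKM + 0.5) (horizontal axis), with 95% limma intervals, dashed lines at a change of 2-fold and 1 colour for each inhibitor. The T-5224 points run from -0.36 for Slc38a2 to 3.98 for Slc7a5, and the SB431542 points stay between -0.18 and 0.72.

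Since the light chains share the heavy chain Slc3a2, their mRNA was also given as a share of the summed RPKM of the light chains listed, Slc7a5, Slc7a6, Slc7a7, Slc7a8 and Slc7a11 (Slc7a10 was not listed). In the T-5224 experiment the share of Slc7a5 was 39.2% and 36.7% in DMSO and 89.0% and 88.8% with T-5224. Slc7a6, which exchanges cationic for neutral amino acids, had been the largest of them at 51.9% ± 1.56 (SD, n = 2) in DMSO and was at 5.06% ± 0.0964 (SD, n = 2) with T-5224, since its own level fell from 34.1 and 32.1 to 22.7 and 21.6 RPKM (log2 fold change -0.57, adjusted p = 5.10e-06, limma) while that of Slc7a5 rose. The share of Slc7a11 was 7.92% ± 0.00905 (SD, n = 2) in DMSO and 5.94% ± 0.165 (SD, n = 2) with T-5224, so the rise of this importer did not raise its share.

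With SB431542 the share of Slc7a5 went from between 65.7% and 67.2% in the 3 DMSO libraries to between 76.1% and 76.3% in the 3 treated ones, a difference of 9.85 percentage points. The share of Slc7a6 went from 26.1% ± 1.08 (SD, n = 3) to 18.4% ± 0.366 (SD, n = 3), and that of Slc7a11 from 7.22% ± 1.01 (SD, n = 3) to 5.24% ± 0.241 (SD, n = 3). For Slc7a5 and Slc7a11 the groups did not overlap in either experiment. Two-sided exact permutation tests gave p = 0.1 for both shares with SB431542 and p = 0.3333 for both with T-5224 (0.2 and 0.3333 after Benjamini-Hochberg adjustment over the 4 tests), the smallest values these group sizes allow. Levels of Slc7a7 and Slc7a8 were below 1 RPKM in all libraries.

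The summed light chain RPKM per RPKM of Slc3a2 was 0.637 and 0.586 in DMSO and 0.742 and 0.763 with T-5224, where both sides of the ratio had risen. With SB431542 it went from between 0.720 and 0.897 to between 1.35 and 1.36. There, of the light chains tested, Slc7a5 had risen, while Slc7a6, at 29.67 ± 4.13 and 30.02 ± 1.66 RPKM (SD, n = 3), Slc7a11 and Slc3a2 did not pass the test. No test was run on these ratios.

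**Figure D3:**
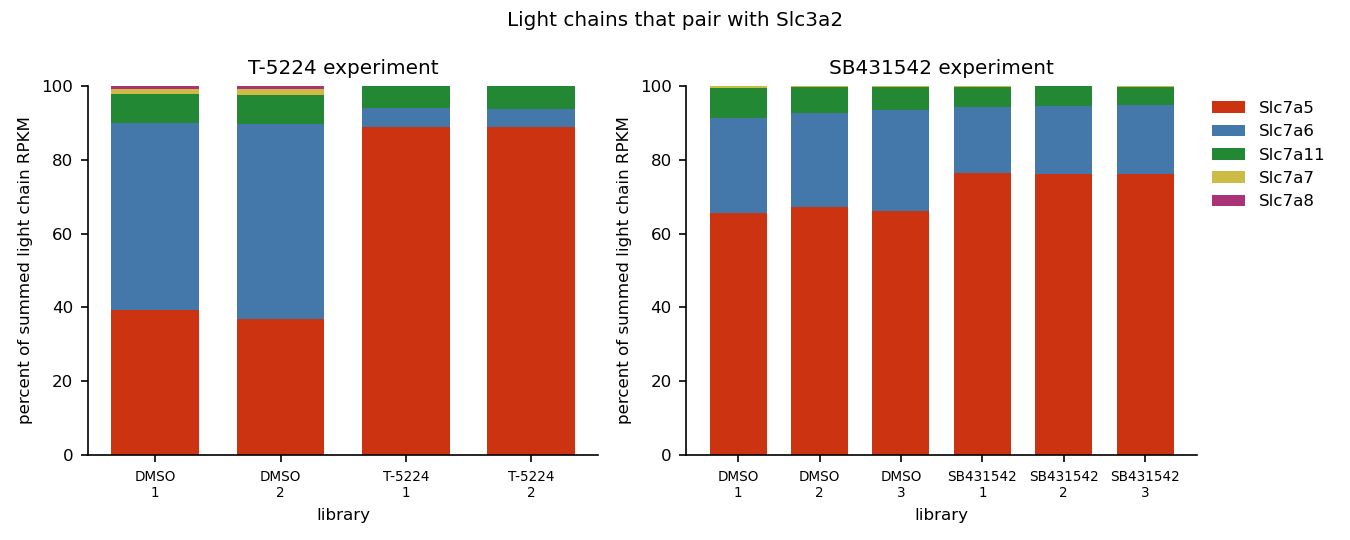
Percent of the summed light chain RPKM (vertical axis, from 0 to 100) taken by each of the 5 light chains listed, 1 bar for each library of the 2 experiments. Slc7a5 fills 36.7% to 39.2% of the DMSO bars and 88.8% to 89.0% of the T-5224 bars, and 65.7% to 67.2% against 76.1% to 76.3% in the SB431542 experiment.

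Among the other plasma membrane and lysosomal amino acid transporters, none of those tested was called up with T-5224, where 10.4% of all genes were. With 13 tested, 0 lies near that share, and these genes too were listed with earlier results of these data known. Of a list of 45, 29 were listed in the T-5224 table and 13 tested. In limma 0 were called up (by adjusted or unadjusted p) and 2 down, where 10.6% of all genes were called down. The median log2 fold change of the 13 was -0.56. With no fold limit, 4 were higher and 9 lower, where 40.3% and 39.4% of all genes were. The 4 higher ones, named after their values were seen, were Slc6a15, a carrier of branched-chain amino acids (log2 fold change 0.92, adjusted p = 2.69e-06), the lysosomal arginine sensor Slc38a9 (0.70, adjusted p = 2.33e-04), the glutamine carrier Slc38a1 (0.68, adjusted p = 5.39e-07) and the glutamate carrier Slc1a3 (0.43, adjusted p = 0.00596). Below the filter, the cationic amino acid carrier Slc7a2, also named after its values were seen, was at 0.293 and 0.265 RPKM in DMSO and 1.14 and 0.997 RPKM with T-5224, and with no filter on low values 1 of the 29 was called up. The 2 called down were Slc6a6, the taurine transporter, at 308 and 312 RPKM in DMSO and 106 and 99.2 RPKM with T-5224 (log2 fold change -1.59, SE 0.05, adjusted p = 2.32e-10), and Slc43a2, a carrier of branched-chain amino acids, at 2.05 and 2.39 against 0.335 and 0.365 RPKM (-1.68, SE 0.14, adjusted p = 3.97e-07). Slc43a2 passed the filter on low values through its DMSO level.

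With SB431542, 32 of the 45 were listed and 12 tested. None was called, by adjusted or unadjusted p with the 2-fold limit, where 0.231% of all genes were called up and 0.581% down. With no fold limit limma placed 2 higher and 2 lower at an adjusted p under 0.05 (3 and 3 at an unadjusted p). Of all genes, 10.2% were higher and 10.0% lower at that adjusted p. The 2 higher ones were Slc1a3 (log2 fold change 0.37, adjusted p = 0.0102) and Slc38a1 (0.23, adjusted p = 0.0250), both also higher with T-5224. The lower ones included Slc6a6, at 197, 199 and 204 RPKM in DMSO and 117, 113 and 104 RPKM with SB431542 (log2 fold change -0.84, SE 0.06, adjusted p = 2.36e-04). Slc6a6 was therefore lower with either inhibitor, and its libraries did not overlap. Every treated library was below every control for 44.5% of all genes with T-5224 and 21.3% with SB431542. The glutamine carrier family member Slc38a7, named after its values were seen, was also lower and apart with either inhibitor. Its log2 fold change was -0.60 with T-5224 (adjusted p = 5.51e-06, limma) and -0.38 with SB431542 (adjusted p = 0.0180).

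Mitochondrial amino acid carriers were tested as a further 10, of which 8 passed the filter in each table. None was called in either experiment, by adjusted or unadjusted p, and their median log2 fold change was 0.13 with T-5224 and 0.19 with SB431542. Of all genes, 10.4% were called up and 10.6% down with T-5224, and 0.231% and 0.581% with SB431542. With no fold limit, 3 carriers were higher and 2 lower with T-5224, where 40.3% and 39.4% of all genes were. With SB431542, 2 were higher and 0 lower (4 and 0 at an unadjusted p), where 10.2% and 10.0% of all genes were at the adjusted p. The values of the carriers with T-5224 lay between -0.56 and 0.64 on the log2 scale.

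**Figure D4:**
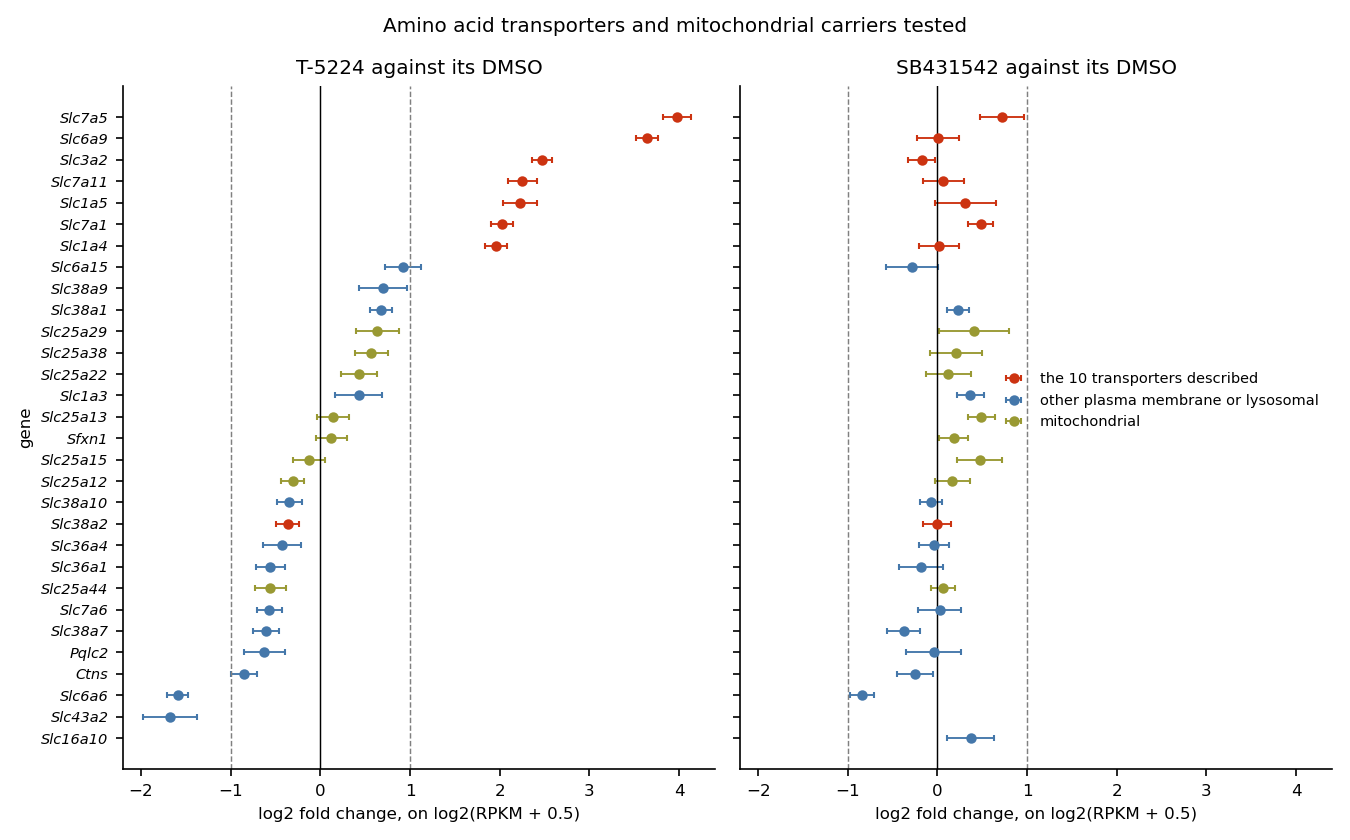
Log2 fold change against DMSO (horizontal axis, with 95% limma intervals and dashed lines at 2-fold) of every amino acid transporter and mitochondrial carrier tested (vertical axis), ordered by the T-5224 value. The 7 genes right of the upper dashed line with T-5224 are all among the 10 transporters described, and none passes a dashed line with SB431542. All lists were chosen with earlier results of these data known, so the split between them is not a test.

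The makeup of the transporter mRNA also differed with T-5224, which was described and not tested. The summed RPKM of the 10 and the 29 others listed was 956 and 939 in DMSO and 1960 and 1867 with T-5224, or 0.275% ± 0.00356 and 0.535% ± 0.00806 (SD, n = 2) of all RPKM. The 10 transporters made up 46.7% and 45.2% of it in DMSO and between 85.6% and 85.7% with T-5224. These 10 were chosen with earlier results of these data known, so the change in their share is no independent result. Slc6a6 and Slc38a2 had led in DMSO, at 32.7% and 23.1% of the sum on average, and held 5.36% and 8.87% with T-5224, when Slc3a2 (30.4%), Slc7a5 (20.3%) and Slc6a9 (10.2%) led.

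In the SB431542 experiment the sum stayed between 895 and 1005 RPKM in DMSO and between 890 and 949 RPKM with the inhibitor, with overlap. The 10 transporters held between 61.3% and 63.5% of it in DMSO and between 69.8% and 70.9% with SB431542. The share of Slc7a5 went from 7.91% ± 0.745 to 13.5% ± 0.324 and that of Slc6a6 from 21.1% ± 1.12 to 12.1% ± 0.546 (SD, n = 3 each).

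**Figure D5:**
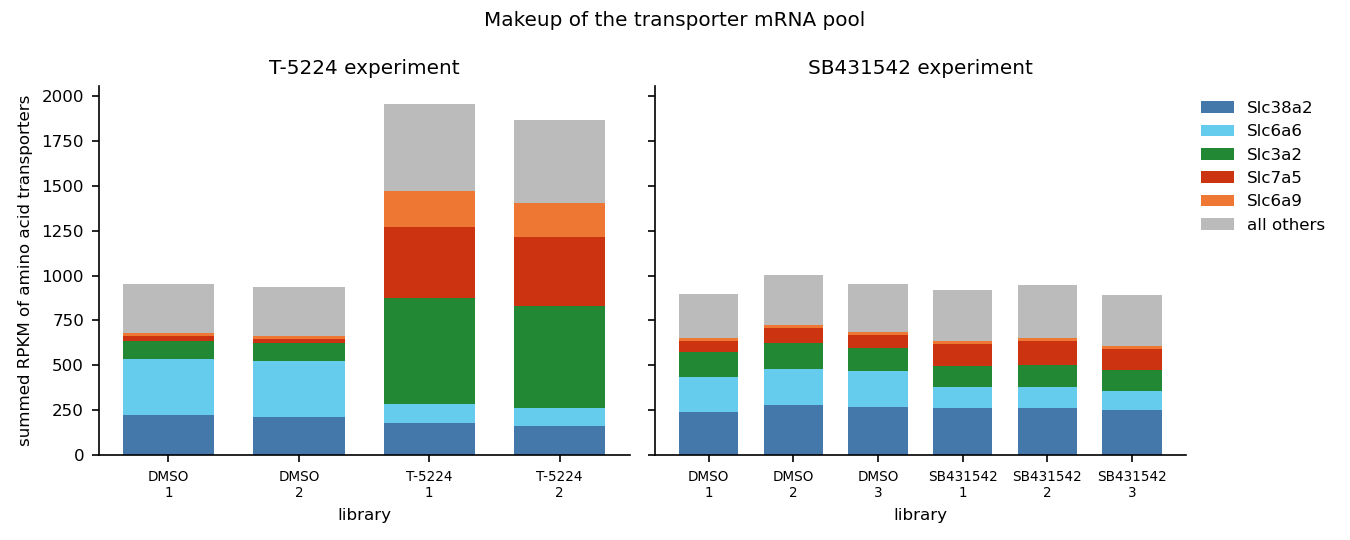
Summed RPKM of the amino acid transporters listed in each table (vertical axis), stacked by gene, 1 bar for each library. The T-5224 bars reach 1867 and 1960 against 939 and 956 in DMSO and are filled mostly by Slc3a2, Slc7a5 and other risen genes, while the SB431542 bars overlap their DMSO bars in height.

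Levels also differed between the DMSO groups of the 2 experiments, which were normalised apart and are set side by side with no test. Slc7a5 averaged 75.5 ± 11.4 RPKM (SD, n = 3) in the DMSO group beside SB431542 and 24.3 ± 2.89 (SD, n = 2) in that beside T-5224, Slc7a1 57.9 ± 2.96 and 29.2 ± 0.354, and Slc1a5 6.67 ± 1.40 and 3.0 ± 0.327. Slc6a9 was close, at 15.4 ± 1.45 and 15.1 ± 0.412. In the SB431542 experiment neighbours in the order of levels that overlapped were Slc7a11 and Slc1a5, and Slc7a3 and Slc43a1, in both groups, and with SB431542 also Slc7a5 and Slc3a2, at 124 ± 5.84 and 120 ± 5.38 RPKM (SD, n = 3).

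Regulators of the integrated stress response rose beside the transporters with T-5224. Of 8 regulators 7 were called up and none down, where 10.4% and 10.6% of all genes were, and their median log2 fold change was 3.64. These regulators and the NRF2 targets below were listed with earlier results of these data known. Atf4, the factor named above, went from 45.2 and 47.1 RPKM to between 521 and 545 RPKM (log2 fold change 3.52, SE 0.05, adjusted p = 6.70e-13, limma). With SB431542, Atf4 was higher by 0.55 (SE 0.06, adjusted p = 0.00189) and no regulator was more than 2-fold higher, where 0.231% of all genes were called up. With no fold limit 2 were higher and 1 lower, where 10.2% and 10.0% of all genes were. The lower one was Nupr1, a stress-induced cofactor that was called down (-1.11), where 0.581% of all genes were. Of 6 NRF2 targets, all were called up with T-5224 (median 2.40), against 10.4% of all genes. Among them was Gclm, a subunit of the enzyme that starts glutathione synthesis (3.21, SE 0.06, adjusted p = 3.31e-12). None was more than 2-fold higher with SB431542 (median 0.24). With no fold limit 3 of the 6 were higher and 0 lower with SB431542, against 10.2% and 10.0% of all genes. Gclm was among these 3 (0.34, adjusted p = 0.00776, limma). Whether either pathway acted on the transporters was not tested.

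The genes most like 2 of the transporters were found by the distance, over the 10 libraries and 10462 genes tested in both tables, between log2 levels taken relative to the DMSO mean of the same table. For the cystine importer Slc7a11 they were Hap1 (distance 0.154), Scpep1 (0.318) and Nars (0.356), where the median gene lay at 3.23. Nars, the cytosolic asparaginyl-tRNA synthetase, went from between 75.8 and 83.3 to between 320 and 338 RPKM with T-5224. For Slc7a5 they were Epgn (0.615), a ligand of the EGF receptor, Atf4 (0.790) and Mthfd2 (0.852), a mitochondrial enzyme of one-carbon metabolism, where the median gene lay at 5.79. Epgn went from between 2.19 and 2.57 to between 36.6 and 38.2 RPKM with T-5224 and differed by 0.87 on the log2 scale with SB431542, against 0.72 for Slc7a5.

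On NCBIM37 (mm9) the transporters that rose with T-5224 lie at chr8:124405052-124431594 (Slc7a5), chr4:117507111-117547803 (Slc6a9), chr19:8781372-8797859 (Slc3a2), chr3:50168858-50247535 (Slc7a11), chr7:17366695-17383623 (Slc1a5), chr5:149138986-149211480 (Slc7a1) and chr11:20202183-20232716 (Slc1a4). They are on 7 different chromosomes. Slc38a2, which fell, is at chr15:96517825-96530129, and the 2 near-silent genes are at chr2:84679007-84703751 (Slc43a1) and chrX:98274549-98281359 (Slc7a3). All 10 are annotated as protein coding, and apart from Slc6a9 none shares exons with another gene.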

How the data were processed

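RNA-seq libraries (TruSeq Stranded mRNA, HiSeq2000) of ASZ001 cells were aligned with TopHat to mm9 by the authors, who made RPKM per gene with HOMER and deposited 1 table per inhibitor. RPKM are not counts, so limma 3.58.1 (R 4.3.3; lmFit and eBayes with a mean-variance trend) was run per table on log2(RPKM + 0.5) for genes whose mean RPKM reached 1, with Benjamini-Hochberg adjustment, in place of the count model of the study. Fold changes on this scale understate those of low genes. Rows with a date for a name were left out (22 of 17680 with SB431542, 23 of 16742 with T-5224). The DMSO columns of the T-5224 table are numbered 1 and 2 and the labels 4 and 5, so they were matched by group. Depth came from miRNA genes of at most 250 bases below 6 reads, where 88.0% to 100% of values were whole reads within 0.05. The depth was picked to bring this share near its highest, over 12 to 33 values a library. The share is therefore no independent check of the depth. The fits were tried on simulated data with independent normal noise and planted log2 changes of 2 or 3 in size. Of 100 changes of size 2, 98 were called with the SB431542 design and 100 with the T-5224 design. All 100 of size 3 were called with each, and there were 0 false calls. Smaller changes were not simulated. Named were the 10 transporters, called genes of the other lists, the light chains, nearest genes, cell type markers and genes overlapping Slc6a9. Slc6a15, Slc38a9, Slc38a1, Slc1a3, Slc7a2 and Slc38a7 were not called and were named after their values were seen. Members and lists were chosen with earlier results of these data known.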

Additional observations from a re-analysis of the deposited data

How the results depend on the processing

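Over the alternatives for the 8 tested transporters (pseudocount 0.1 or 1, mean RPKM of at least 5 or no filter, quantile normalization, median centring, unadjusted p, no mean-variance trend, replicate block, each library left out), 214 of 216 fits gave the same result. The result was whether p was under 0.05 and in which direction, with no fold limit. A change of sign between fits that did not pass counted as the same. The 2 others were Slc3a2 with SB431542, which passed at an unadjusted p and without DMSO replicate 1. The T-5224 log2 fold changes of the risen genes kept adjusted p of at most 9.79e-05, and Slc38a2 stayed between -0.45 and -0.30. Leaving out a library gave 7 to 7 transporters called with T-5224 and 0 to 0 with SB431542, 2 to 3 of the other transporters with T-5224, and 77 to 108 (SB431542, main 88) and 2264 to 2303 (T-5224, main 2265) of all genes. At 1.5-fold, SB431542 called 1 transporter (Slc7a5), 1 other transporter and 384 of all genes, and T-5224 8 other transporters, 1 mitochondrial carrier and 4685 of all genes. With no fold limit SB431542 called 2 transporters, 4 other transporters, 2 mitochondrial carriers and 2192 of all genes. In the same order the counts with T-5224 were 8, 13, 5 and 8616. At a mean RPKM of at least 5, where fewer genes were tested, 51 of all genes were called with SB431542 and 1 other transporter with T-5224. With light chains of a mean RPKM of at least 1, the Slc7a11 share moved by -2.16 percentage points with T-5224, against -1.98.

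Same-numbered libraries of the SB431542 experiment did not all vary together (correlations of deviations from the group mean -0.148, 0.151 and -0.0949). Between differently numbered libraries the correlations ran from -0.171 to 0.196. With 3 libraries a group these values cannot settle whether any of them shared a culture or batch. With the replicate block 96 of all genes were called and 0 transporters. No block was run for the T-5224 experiment, where the labels share no numbers between the groups and the DMSO columns were matched by group alone. With 2 libraries a group there, spread rests largely on the variance shared over genes, a library left alone in its group is assumed to vary like the others, and Slc7a3 and Slc43a1 are below what this depth can compare.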
